A study of Mus musculus with 31 samples.

Results

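The genes described here are 33 genes of cholesterol and fatty acid synthesis, chosen by gene symbol for their place in these pathways, out of 55401 genes listed for each library. They fall into 7 genes of the mevalonate route, 11 of the squalene and sterol route, 6 of sterol sensing and transport, and 9 of fatty acid synthesis. All 33 passed the filter on low counts, as did 14490 genes in all. RNA-seq of sorted astrocytes gave 12 libraries, from female C57Bl/6 mice aged 10 weeks, with 3 libraries in each of 4 labelled groups. Mice labelled 2X cytokine were injected in the lateral ventricles of the brain with IL-1β (100 ng/mL) plus TNF-α (50 ng/mL), and once more at day 7, and mice labelled 2X PBS received the vehicle, phosphate-buffered saline, on the same schedule. Mice labelled 1X cytokine and 1X PBS were injected at day 7 only. Astrocytes were sorted 18 to 24 hours after the injection at day 7. The sources used here name neither the markers of the sort nor the animals behind a library, so p-values cover the spread among libraries, part of which may be technical.

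Cholesterol is built from acetyl-CoA by way of mevalonate, squalene and lanosterol, and fatty acids are built from the same precursor by acetyl-CoA carboxylase and fatty acid synthase, then lengthened by elongases and made unsaturated by desaturases. SREBP transcription factors switch on both routes: the escort protein SCAP carries them out of the endoplasmic reticulum when sterol is low, and INSIG proteins hold the complex back when sterol is high. In the adult brain, which the blood-brain barrier cuts off from plasma cholesterol, astrocytes make sterol and pass it to neurons, and oligodendrocytes make it for myelin.

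The labels and the sort were checked before the results. Lcn2 and Gfap, which are known to rise in astrocytes exposed to inflammatory cytokines, were lower in the libraries labelled cytokine, except in replicate 1 of the 1X groups. Lcn2 had 14.99, 2.26 and 1.20 CPM (counts on a common library scale) in libraries 1, 2 and 3 labelled 2X cytokine, against 570.1, 363 and 426 in 2X PBS. It had 797, 11.5 and 3.85 CPM in 1X cytokine, against 5.33, 1076 and 776 in 1X PBS. Gfap gave the same order, at 149.9, 119 and 113 CPM in 2X cytokine against 1141, 1043 and 1095 in 2X PBS, and at 725, 234 and 153 in 1X cytokine against 189, 702 and 585 in 1X PBS. Replicate 1 of each 1X group was therefore unlike the other libraries with its label, and every direction below is that of the labels. Whether labels were exchanged for some or all libraries was not tested, and the sign of each fold change would turn round for a pair of exchanged groups. Library totals ran from 1878418 to 5521679 estimated counts, so that 3 counts correspond to 0.543 to 1.597 CPM. The 10 astrocyte markers were present in each library, at a level of 387 to 1341 (geometric mean of CPM + 0.5). Markers of other cells were also counted. The level was 128 to 296 for 10 oligodendrocyte genes and 1.86 to 136 for 8 monocyte and neutrophil genes, where Ly6c2 and Plac8 were at 0 in some libraries. It was 175 to 495 for 8 mural and fibroblast genes and 134 to 305 for 8 ependymal and choroid plexus genes, where Ttr had 3632 to 27230 CPM. The mural and fibroblast level came near the astrocyte level in 1X cytokine replicate 1 (495 against 543) and 1X PBS replicate 3 (376 against 387). Of 8 neuronal markers 5 passed the filter, at a level of 10.1 to 17.25. Tubb3 had 62.5 to 133 CPM, and Slc17a7 was at 0 in all 12 libraries.

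The synthesis genes were well expressed. Per transcript length, in TPM (transcript abundance on a common sum per library) averaged over 12 libraries, the highest was Scd2 at 333, followed by Msmo1 at 326, Fads2 at 268, Elovl5 at 245, Srebf1 at 202, Fads1 at 190 and Hmgcs1 at 156. The lowest were Stard4 at 6.41, Hsd17b7 at 8.95, Acaca at 14.3 and Elovl6 at 18.0 TPM. The ranges over libraries of neighbours in this order overlapped widely: Scd2 ran from 175 to 436 TPM and Msmo1 from 132 to 468. Together the 33 genes took between 0.407% and 0.778% of the counts of a library.

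**Figure D1:**
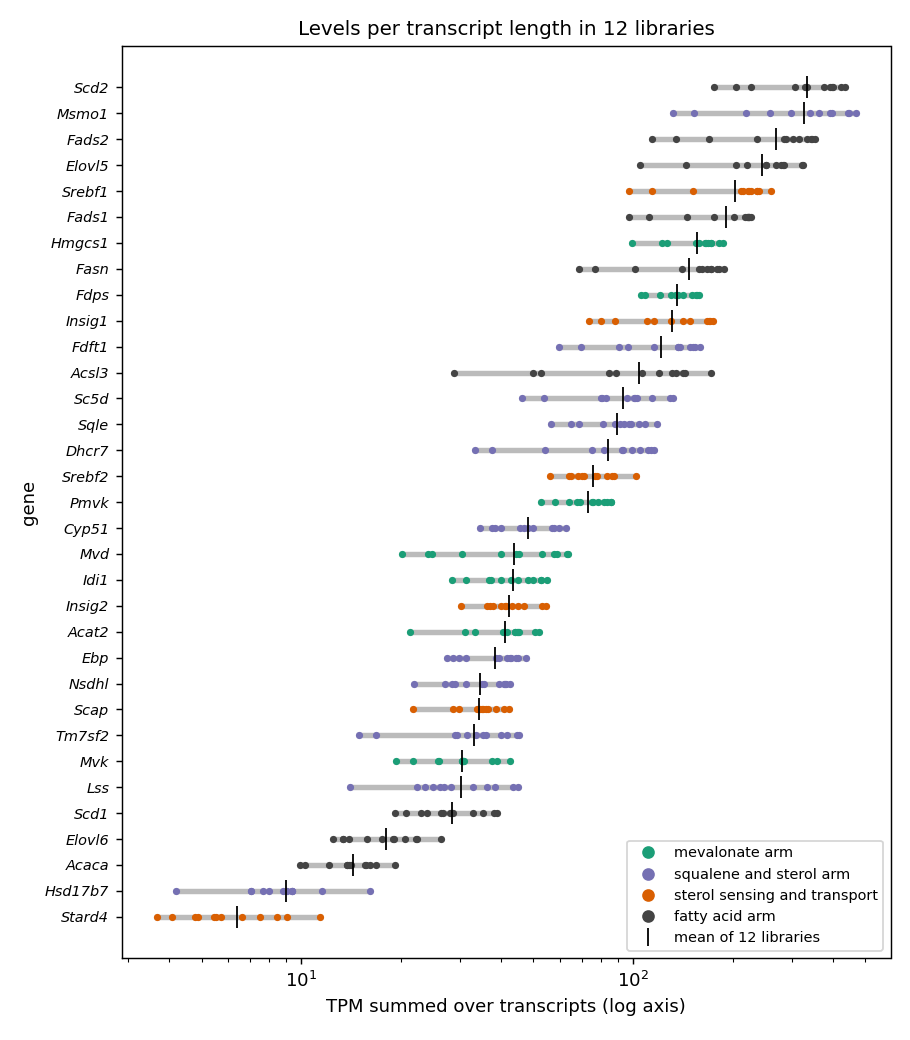
TPM of each of the 33 genes in the 12 libraries, on a log axis, ordered by the mean, with points coloured by route and grey bars from the lowest to the highest library. Scd2 and Msmo1 lie at the top, at means of 333 and 326 TPM, and Stard4 at the bottom, at 6.41 TPM.

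In the mevalonate route, Hmgcs1 (chromosome 13, 119690379 to 119708260), which makes the HMG-CoA from which mevalonate is formed, had the highest TPM of the route. It had 363, 359 and 318 CPM in 2X cytokine and 370.3, 349.6 and 338 in 2X PBS, and 328, 267 and 400 CPM in 1X cytokine and 419, 287 and 270.2 in 1X PBS. The groups overlapped on both schedules, and the highest library of the 12 was 1X PBS replicate 1. Fdps (chromosome 3, 89093588 to 89101959), the farnesyl diphosphate synthase at the branch to sterols, had 136 TPM, and Pmvk, a kinase of mevalonate phosphate, had 73.1 TPM. Acat2, the thiolase that opens the route, and Mvk, Mvd and Idi1, which phosphorylate, decarboxylate and isomerise its intermediates, lay between 30.4 and 43.8 TPM. Mvd varied more than the other genes of the route, with 70.7, 62.5 and 42.9 CPM in 2X cytokine and 58.4, 50.0 and 49.7 in 2X PBS, and 28.3, 33.4 and 72.5 CPM in 1X cytokine and 67.7, 29.1 and 29.2 in 1X PBS. Its groups overlapped on both schedules, and the 1X libraries divided within each label.

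The Hmgcs1 promoter is shown because it was the only promoter among those searched for these genes that held the letters TCACNCCAC of a sterol regulatory element, the site that SREBP proteins bind. The 250 bases before the start site, on the plus strand of GRCm38.p6 at chr13:119690101-119690350, come from RefSeq, and the capitals mark that match and each CCAAT box, the site of the factor NF-Y, read on the opposite strand as ATTGG.
Hmgcs1 promoter: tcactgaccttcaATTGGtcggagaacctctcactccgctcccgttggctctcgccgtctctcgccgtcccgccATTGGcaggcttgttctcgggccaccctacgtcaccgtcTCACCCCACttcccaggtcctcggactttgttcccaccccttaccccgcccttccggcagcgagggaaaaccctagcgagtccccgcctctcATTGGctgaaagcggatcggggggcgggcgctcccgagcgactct
The sterol element begins at base -137 from the start, between CCAAT boxes whose lowest bases lie at -237, -176 and -45. RefSeq promoter windows, from 250 bases before to 50 after each start, were found for 26 of the 33 genes, with 34 windows, and both strands were searched. TCACNCCAC was in 1 of these 34 windows (2.94%) and in 1.24% of all 32851 mouse windows. CCAAT was in 22 windows (64.7%) and in 37.4% of all, and GGGCGG, the Sp1 box, in 25 windows (73.5%) and in 35.7% of all. A match is a stretch of letters, not a bound site, and the windows of 1 gene can overlap.

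In the squalene and sterol route, Msmo1 (chromosome 8, 64718139 to 64733792), an oxidase that removes methyl groups from sterols, was the highest. It had 438, 387 and 323 CPM in 2X cytokine and 531, 424 and 394 in 2X PBS, and 227, 295 and 525 CPM in 1X cytokine and 456, 182 and 193 in 1X PBS. The 2X groups overlapped, and the 1X libraries divided within each label. Fdft1, the squalene synthase, had 121 TPM, Sc5d, a sterol desaturase, 93.1, and Sqle, the squalene epoxidase, 89.2. Dhcr7 (chromosome 7, 143823145 to 143848410), the reductase that completes cholesterol, had 84.1 TPM and the widest spread within a label, a coefficient of variation of 68.4% in 1X PBS. It had 128, 119.8 and 103 CPM in 2X cytokine and 126, 126 and 110.4 in 2X PBS, and 66.9, 87.2 and 137 CPM in 1X cytokine and 146, 49.3 and 49.4 in 1X PBS. The replicate 1 library of 1X PBS was the highest of the 12, and the other libraries of that label were the lowest. Lss, the lanosterol synthase, Cyp51, the lanosterol demethylase, Nsdhl, Ebp and Tm7sf2, which act on later sterols, lay between 30.2 and 48.2 TPM.

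Among the genes of sterol sensing, Srebf1 (chromosome 11, 60199089 to 60222581), which encodes the SREBP protein best known for fatty acid genes, had 202 TPM, and Srebf2, which encodes the one best known for sterol genes, had 75.6. Srebf1 had 535, 549 and 499 CPM in 2X cytokine and 532, 478 and 543 in 2X PBS, and 374, 539.9 and 575 CPM in 1X cytokine and 638, 315 and 297 in 1X PBS. Srebf2 had the narrowest range of all 33 genes in CPM: its highest library was 1.33-fold above its lowest, against 4.08-fold for Acsl3 at the other end. In TPM Fdps had the narrowest range, at 1.5-fold against 1.82-fold for Srebf2. Insig1 (chromosome 5, 28071363 to 28078662), itself a target of SREBP, had 309, 255 and 195 CPM in 2X cytokine and 289, 239.6 and 231 in 2X PBS, and 139, 189.7 and 313 CPM in 1X cytokine and 306, 166 and 155 in 1X PBS. Cytokine and PBS libraries of Insig1 overlapped on both schedules. Insig2, the other retention protein, had 42.2 TPM and Scap, the escort, 34.4.

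In fatty acid synthesis, Scd2 (chromosome 19, 44293674 to 44306864), a stearoyl-CoA desaturase, had 333 TPM, and its neighbour Scd1 (chromosome 19, 44394455 to 44407879) had 28.4. Scd1 and Scd2 are close paralogs, so the division of reads between them by the authors' model is uncertain. Fasn (chromosome 11, 120805846 to 120824547), the fatty acid synthase, had 449.8, 423 and 402 CPM in 2X cytokine and 451, 380.1 and 384 in 2X PBS, and 304, 344 and 492 CPM in 1X cytokine and 504, 223 and 236 in 1X PBS. Fads2, which places unsaturated bonds in polyunsaturated fatty acids, had 707, 703 and 644 CPM in 2X cytokine and 609, 596 and 654 in 2X PBS, and 371, 493 and 763 CPM in 1X cytokine and 774, 312 and 307 in 1X PBS. Both genes kept within a narrow band in the 2X libraries and spread widely in the 1X libraries. Fads1, a desaturase of the same route, had 190 TPM, and Elovl5, which lengthens polyunsaturated fatty acids, had 245.

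Many of the 33 genes were high or low in the same libraries. In CPM, 14 of them were highest in 1X PBS replicate 1, 8 in 1X cytokine replicate 3 and 5 in 2X cytokine replicate 1. The lowest library was 1X cytokine replicate 2 for 10, 1X PBS replicate 2 for 9 and 1X PBS replicate 3 for 9. The same count was not made over all genes. The astrocyte marker level was also highest in the libraries named first, at 1341, 1251 and 1234. It was 1063, 395 and 387 in those named last. The level of the 33 genes (geometric mean of CPM + 0.5) was 132, 125 and 109 in 2X cytokine and 127, 121 and 117 in 2X PBS, and 95.7, 101 and 138 in 1X cytokine and 139, 84.1 and 85.7 in 1X PBS. The median coefficient of variation within a label was 11.6% in 2X cytokine and 8.998% in 2X PBS, against 21.7% in 1X cytokine and 26.8% in 1X PBS. Over all genes tested these medians were 13.6%, 12.5%, 21.0% and 22.2% in the same order.

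**Figure D2:**
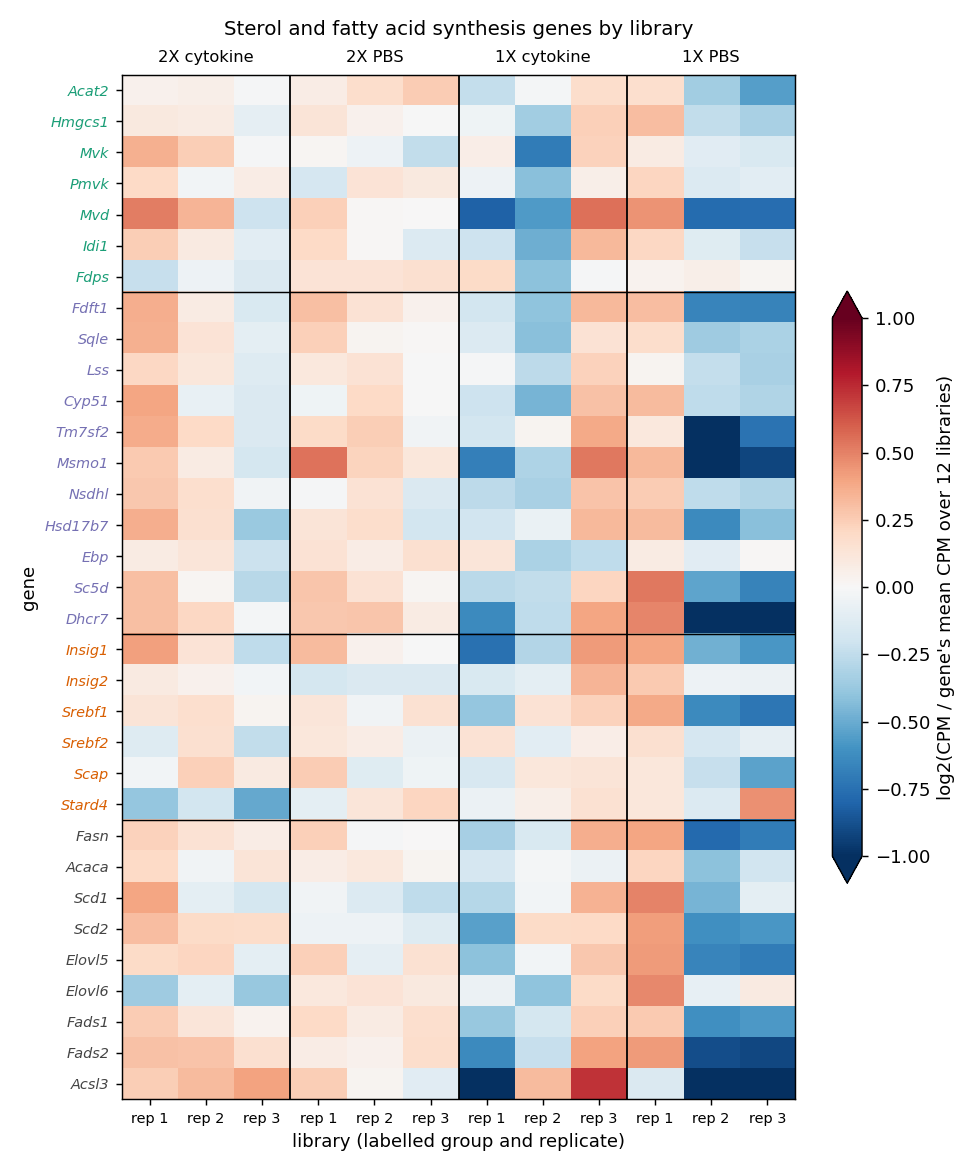
Heat map of the 33 genes (down the page, grouped by route) in the 12 libraries (across), as the log2 ratio of CPM to the gene's mean over 12 libraries. The 2X libraries are pale, and replicates 2 and 3 of 1X PBS are blue for most genes while replicate 1 is red: Dhcr7 had 146, 49.3 and 49.4 CPM in these 3 libraries.

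Repeated cytokine exposure was addressed by setting 2X cytokine against 2X PBS. The synthesis genes lay at nearly the same levels in both groups: all 33 log2 fold changes were between -0.45 and 0.30, so each was within 0.5, against 82.3% of all genes tested. The median size of the log2 fold change was 0.070 for the 33 genes and 0.196 for all genes, and its signed median was 0.02 against -0.0034. The background was not matched for expression level: 10778 of the 14490 genes had a mean of at least 10 CPM, and all 33 genes did. By edgeR with all 12 libraries, 0 of the 33 genes passed an adjusted p of 0.05, where 0.0345% of all genes did. At an unadjusted p under 0.05 there was 1, Stard4, against 9.68% of all genes, and DESeq2 called 0 of the 33, where it called 0.787% of all genes.

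The libraries of both groups did not overlap for 6 of the 33 genes. Of all genes 25.3% were free of overlap, 11.2% higher and 14.1% lower, so the share was not above that background. Scd2 was higher, with 1606, 1477 and 1468 CPM in 2X cytokine and 1253, 1250 and 1187 in 2X PBS. Insig2 was also above in every library, at 73.6, 71.2 and 67.8 CPM in 2X cytokine and 61.0, 62.3 and 62.5 in 2X PBS. In TPM, which takes transcript length into account, this order did not hold: Insig2 had 41.5, 41.1 and 44.9 TPM in 2X cytokine and 37.7, 43.0 and 53.2 in 2X PBS, and its log2 fold change was -0.06 on log2(TPM + 1) by limma and -0.11 by edgeR with a length offset, against 0.19 in CPM. The other 4 lay below in every library. Elovl6, the elongase of saturated and monounsaturated fatty acids, had 28.9, 34.7 and 28.5 CPM in 2X cytokine and 39.8, 40.7 and 39.7 in 2X PBS. Fdps had 88.2, 99.5 and 93.3 CPM in 2X cytokine and 113, 114 and 116 in 2X PBS. Stard4, a protein that carries sterol between membranes, had 12.1, 13.9 and 11.1 CPM in 2X cytokine and 14.8, 17.3 and 18.4 in 2X PBS, and Acat2 had 58.6, 59.2 and 56.4 CPM in 2X cytokine and 59.7, 64.1 and 67.8 in 2X PBS. On the TPM scale the libraries of Elovl6 and Acat2 also overlapped, with the mean still lower in 2X cytokine. These 6 genes come from all routes but the squalene and sterol one, where 5 of the 11 means were higher and 6 lower.

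Scd2 alone passed the threshold when the 6 libraries of this comparison were fitted without the others. There its log2 fold change was 0.31 (SE 0.086, edgeR adjusted p 0.0459), with 3 of 3 libraries higher, against 0.30 (SE 0.28, edgeR adjusted p 0.811) when all 12 were fitted. Over all settings tried its adjusted p ran between 0.0359 and 0.953. The background in the fit of 6 libraries was 7.74% of the genes tested, 2.43% higher and 5.31% lower, so 1 of 33 is not above it. Without replicate 1 of both 1X groups Scd2 was again the 1 gene to pass, where 7.02% of all genes passed. Variation between replicates, as edgeR's biological coefficient, was 0.114 in the fit of 6 and 0.238 in the fit of 12. In the fit of 6 the unadjusted p was under 0.05 for 5 of the 33 genes, Scd2, Elovl6, Fdps, Stard4 and Acsl3, where 20.8% of all genes reached that. The log2 fold changes of Elovl6, Fdps, Stard4 and Acsl3 there were -0.38, -0.27, -0.45 and 0.28, and their adjusted p-values by edgeR were 0.102, 0.0946, 0.207 and 0.147.

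**Figure D3:**
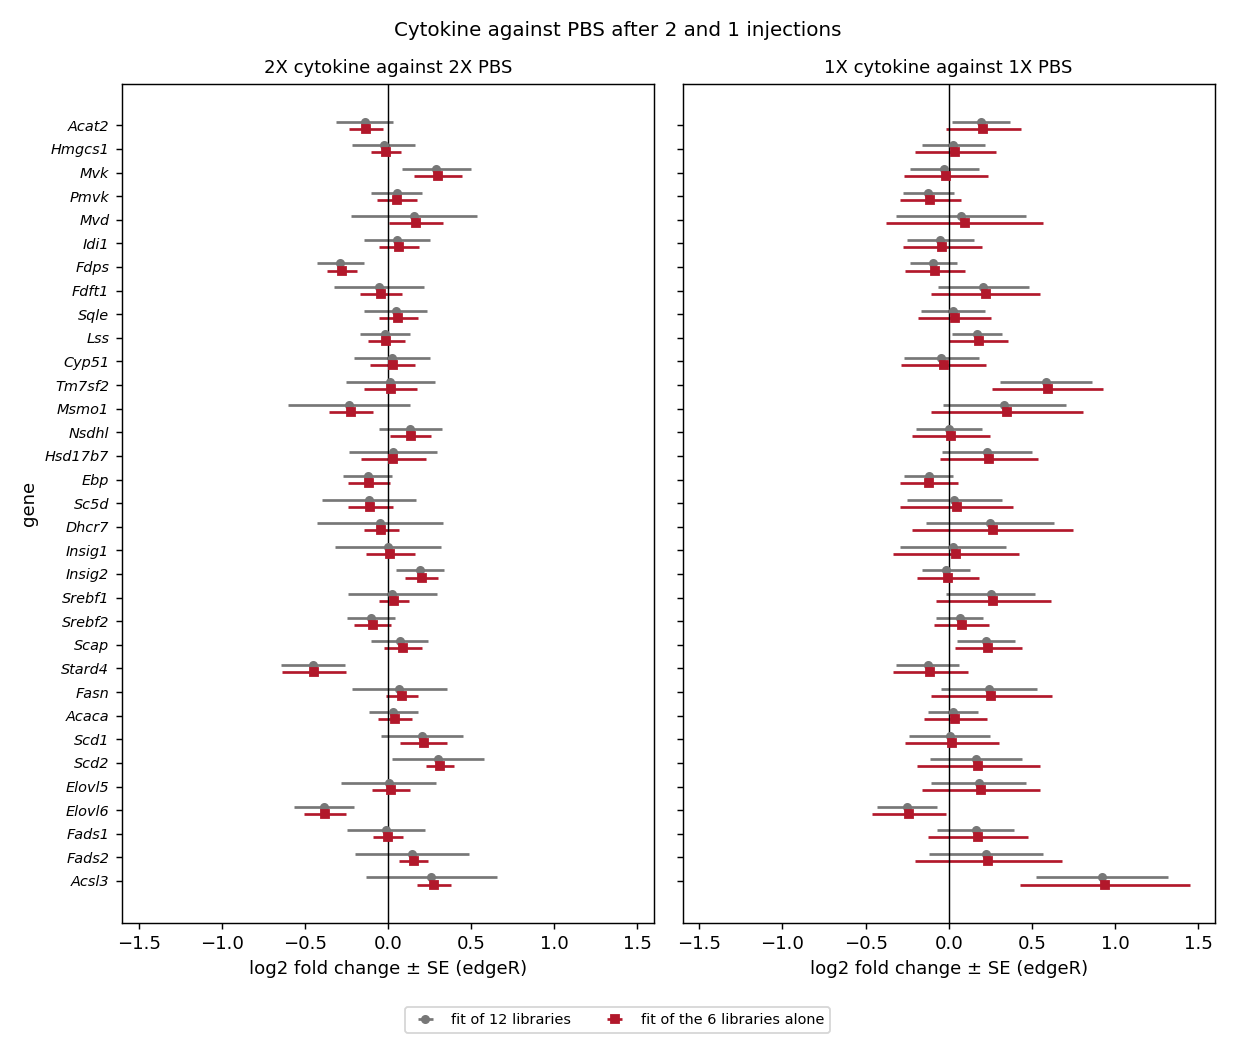
Log2 fold changes (edgeR) with standard errors of the 33 genes, for 2X cytokine against 2X PBS on the left and 1X cytokine against 1X PBS on the right, in the fit of 12 libraries (grey circles) and in the fit of the 6 libraries alone (red squares). On the left the values lie between -0.45 and 0.30 in the fit of 12, and the errors of the fit of 6 are shorter for most genes, at 0.086 for Scd2; on the right Acsl3 lies farthest from 0, at 0.92.

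Markers of other cells differed between the 2X groups. The summed CPM of the 10 oligodendrocyte markers was 6121, 6738 and 5620 in 2X cytokine and 4324, 3385 and 2994 in 2X PBS. That of the 8 monocyte and neutrophil markers was 154, 80.3 and 24.0 in 2X cytokine and 692, 646 and 619 in 2X PBS, and that of the 10 astrocyte markers was 22980, 19250 and 20010 in 2X cytokine and 16570, 16750 and 18780 in 2X PBS. The first differed without overlap in the direction of Scd2 and, in CPM, Insig2, the next without overlap in the direction of Elovl6, Fdps, Stard4 and Acat2, and the last overlapped in no library either, being higher in 2X cytokine. The 8 mural and fibroblast markers were lower without overlap as a level (geometric mean of CPM + 0.5), at 299.5, 273 and 175 in 2X cytokine and 323, 349 and 389 in 2X PBS, but overlapped as summed CPM. The levels of the oligodendrocyte precursor, microglia, endothelial, neuronal and ependymal lists overlapped between the 2X groups. The part of these cell types in the results was not tested. In these bulk libraries fewer cells of a type and less RNA per cell cannot be told apart.

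**Figure D4:**
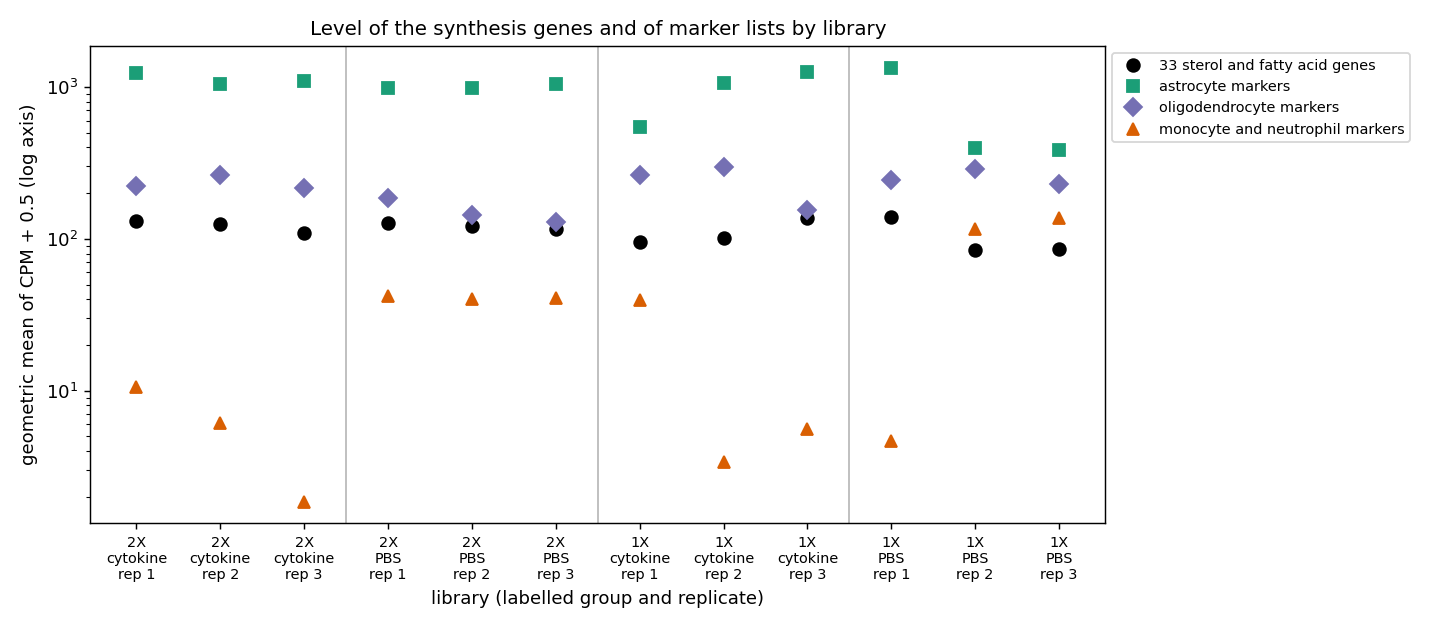
Level of the 33 synthesis genes and of 3 marker lists in each library, as the geometric mean of CPM + 0.5 on a log axis. The synthesis genes stay between 84.1 and 139, the astrocyte markers between 387 and 1341, and the monocyte and neutrophil markers between 1.86 and 136.

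Exposure to cytokine at day 7 alone was addressed by setting 1X cytokine against 1X PBS. Of the 33 genes 24 had a higher mean and 9 a lower one, with a median log2 fold change of 0.07 against -0.01 for all genes, and in no case did the libraries of both labels fail to overlap, against 6.18% of all genes. By edgeR 0 of the 33 passed, with 0% of all genes passing, and DESeq2 called 0 of them and 0.0138% of all genes. At an unadjusted p under 0.05 there was 1, Acsl3, against 5.4% of all genes. Acsl3 (chromosome 1, 78657825 to 78707743), a ligase that activates long-chain fatty acids for lipid droplets, had 76.9, 209.7 and 278 CPM in 1X cytokine and 153, 76.7 and 68.2 in 1X PBS. Its log2 fold change was 0.92 with a standard error of 0.40 (edgeR, adjusted p 0.866, between 2.93e-06 and 1 over the settings tried). The replicate 1 library of 1X cytokine lay beside replicate 2 of 1X PBS, and the replicate 1 library of 1X PBS lay above both. Tm7sf2, a sterol reductase, had 24.6, 28.4 and 36.3 CPM in 1X cytokine and 30.1, 13.0 and 16.7 in 1X PBS, with a log2 fold change of 0.58 and a standard error of 0.28.

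**Figure D5:**
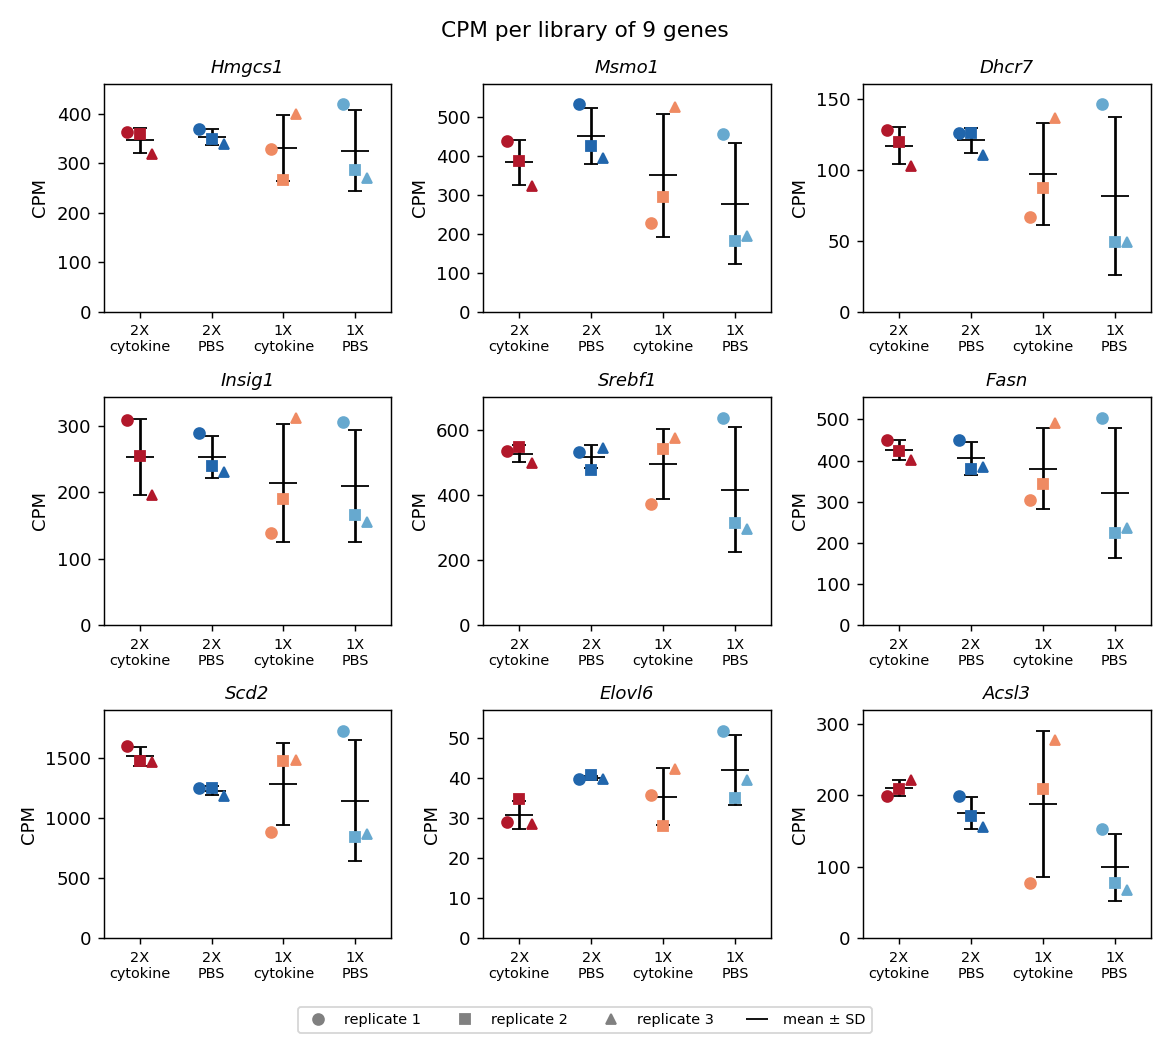
CPM of 9 of the genes in each library, by labelled group, with the symbol of a point giving the replicate number and black bars the mean and SD of 3 libraries. In 1X PBS the replicate 1 library is the highest of its label for each of the 9 genes, while Scd2 in 1X cytokine is lowest in replicate 1, at 888, 1477 and 1487 CPM in 1X cytokine and 1728, 848 and 866 CPM in 1X PBS.

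Leaving out the replicate 1 libraries of both 1X groups changed these counts. In that fit of 10 libraries 15 of the 33 genes rose in 1X cytokine and 0 fell by edgeR, where 23.5% of all genes passed, 12% higher and 11.5% lower. By route these were 6 of 9 fatty acid genes, 5 of 11 squalene and sterol genes, 3 of 6 sensing genes and 1 of 7 mevalonate genes. Their median log2 fold change over all 33 was 0.52, against 0.0028 for all genes. Acsl3 rose by 1.77 (log2, edgeR adjusted p 2.93e-06), Dhcr7 by 1.19 (0.000365), Msmo1 by 1.15 (0.00223), Fads2 by 1.04 (0.000354), Srebf1 by 0.89 (5.26e-05), Fasn by 0.88 (0.000855) and Scd2 by 0.81 (6.08e-05). The remaining 8 were Tm7sf2, Elovl5, Fdft1, Insig1, Fads1, Sc5d, Acat2 and Scap, with log2 fold changes between 0.52 and 1.12. Leaving out 1X PBS replicate 1 alone gave 5 of the 33 genes, Tm7sf2, Dhcr7, Srebf1, Fasn and Acsl3, all higher, where 7.55% of all genes passed, 4.3% higher. Voom with sample quality weights on all 12 libraries gave 10, where 11.6% of all genes passed. Only 2 libraries a group remained in the fit without both, and they were left out because earlier results of these data had shown that they stand apart.

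Cell markers also differed among these 1X libraries. The level of the astrocyte markers was 543, 1063 and 1251 in 1X cytokine and 1341, 395 and 387 in 1X PBS, and that of the monocyte and neutrophil markers 39.3, 3.41 and 5.59 in 1X cytokine and 4.67, 116 and 136 in 1X PBS. Other lists also differed between replicates 2 and 3 of these labels. The level of the endothelial markers was 15.4, 4.76 and 8.96 in 1X cytokine and 6.99, 19.7 and 25.4 in 1X PBS, and that of the ependymal and choroid plexus markers 301, 153 and 212 in 1X cytokine and 135, 305 and 281 in 1X PBS. That of the microglia and macrophage markers was 26.0, 42.1 and 54.1 in 1X cytokine and 27.2, 71.5 and 82.3 in 1X PBS. The libraries with high synthesis genes, replicate 3 of 1X cytokine and replicate 1 of 1X PBS, were those with the highest astrocyte markers of their label. In 1X cytokine both levels rose from replicate 1 to 2 to 3, by unlike steps. The astrocyte level was 543, 1063 and 1251, and the synthesis level 95.7, 101 and 138. Of the 33 genes, 10 had their lowest value of the 12 libraries in replicate 2 of 1X cytokine. Divided by the astrocyte level, the level of the 33 genes was 0.176, 0.0946 and 0.110 in 1X cytokine and 0.104, 0.213 and 0.221 in 1X PBS. Without replicate 1 this ratio was lower in 1X cytokine than in 1X PBS, the opposite order to that in CPM. The divisor alone, at 1063 and 1251 against 395 and 387, differed more between these libraries than the 33 genes did. The ratio would turn round for any list that was higher in CPM by less than the astrocyte markers. What it means for the calls was not tested. The same ratio was 0.107, 0.119 and 0.0994 in 2X cytokine and 0.129, 0.124 and 0.111 in 2X PBS, where the groups overlapped. The part of cell makeup in the calls was not tested.

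Repeated and single exposure were set against each other in 2X cytokine and 1X cytokine, a contrast that cannot be told apart from any batch going with the schedule. The mean of 28 of the 33 genes was higher in 2X cytokine and that of 5 lower, with a median log2 fold change of 0.14 against -0.01 for all genes. By edgeR 0 of the 33 passed, where 0.0276% of all genes did, 0 had an unadjusted p under 0.05, where 7.01% of all genes did, and DESeq2 called 0 of them and 0.0552% of all genes. The 1 gene without overlap, against 12.5% of all genes, was Stard4, which had 12.1, 13.9 and 11.1 CPM in 2X cytokine and 15.2, 16.5 and 17.6 in 1X cytokine, for a log2 fold change of -0.40 (SE 0.20). In TPM the libraries of Stard4 overlapped, with the mean still lower in 2X cytokine. Without replicate 1 of both 1X groups the median was 0.05 and 0 of the 33 genes passed by edgeR, with 0.0202% of all genes passing.

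The schedule in the absence of cytokine was addressed by 2X PBS against 1X PBS, with the same limit, and the 1X PBS libraries are shared with 1X cytokine against 1X PBS. Again 28 of the 33 means were higher and 5 lower, at a median log2 fold change of 0.24 against -0.03 for all genes. By edgeR 0 of the 33 passed, with 0% of all genes passing, and DESeq2 called 0 of them and 0.117% of all genes. At an unadjusted p under 0.05 there were 2, against 6.31% of all genes: Tm7sf2, at 31.7, 33.1 and 27.2 CPM in 2X PBS and 30.1, 13.0 and 16.7 in 1X PBS, and Acat2, at 59.7, 64.1 and 67.8 CPM in 2X PBS and 63.9, 44.6 and 38.7 in 1X PBS. The libraries did not overlap for 3 genes, against 11.4% of all genes. Acsl3 had 199.8, 171 and 156 CPM in 2X PBS and 153, 76.7 and 68.2 in 1X PBS, and Fdps had 113, 114 and 116 CPM in 2X PBS and 106, 108 and 105 in 1X PBS. Insig2, the 1 gene below in every library, had 61.0, 62.3 and 62.5 CPM in 2X PBS and 82.9, 66.5 and 66.3 in 1X PBS, for a log2 fold change of -0.21, but in TPM its groups overlapped and the log2 fold change turned to 0.16 (limma on log2(TPM + 1)).

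This comparison also turned on the replicate 1 library of 1X PBS. Without it 11 of the 33 genes rose in 2X PBS by edgeR, among them Dhcr7 at a log2 fold change of 1.31 (adjusted p 0.0155) and Msmo1 at 1.29 (0.0269), where 7.39% of all genes passed, 4.97% higher. Voom with sample quality weights on all 12 libraries gave 15, where 17.8% of all genes passed. Without replicate 1 of both 1X groups 17 rose and 0 fell, where 18.6% of all genes passed, 10.1% higher. These were 7 of 9 fatty acid genes, 5 of 11 squalene and sterol genes, 3 of 6 sensing genes and 2 of 7 mevalonate genes. The astrocyte level was 979, 982 and 1048 in 2X PBS against 1341, 395 and 387 in 1X PBS, and that of the monocyte and neutrophil markers was 41.9, 40.2 and 41.0 in 2X PBS against 4.67, 116 and 136 in 1X PBS. The oligodendrocyte markers did not overlap, at a summed CPM of 4324, 3385 and 2994 in 2X PBS and 6424, 6471 and 5346 in 1X PBS. The level of the endothelial markers was 8.45, 7.65 and 9.06 in 2X PBS and 6.99, 19.7 and 25.4 in 1X PBS, that of the ependymal and choroid plexus markers 205, 201 and 184 in 2X PBS and 135, 305 and 281 in 1X PBS, and that of the microglia and macrophage markers 41.0, 62.1 and 48.7 in 2X PBS and 27.2, 71.5 and 82.3 in 1X PBS. The part of these cell types in the calls was not tested.

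Whether the response differed between the schedules was tested as the difference of both fold changes, 2X minus 1X. By edgeR 0 of the 33 genes passed, with 0% of all genes passing, 0 had an unadjusted p under 0.05, where 5.2% of all genes did, and DESeq2 called 0 of them and 0.0897% of all genes. The median difference was -0.15 (log2), and Acsl3 had the largest, at -0.66 with a standard error of 0.56. Without replicate 1 of both 1X groups 11 genes passed by edgeR, all with a lower fold change in 2X, where 9.33% of all genes passed, 6.12% lower. They were Acsl3, Msmo1, Dhcr7, Tm7sf2, Fads2, Srebf1, Elovl5, Fasn, Acat2, Fads1 and Scd2. This difference shares its 1X libraries with the fold changes described above.

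Other genes of these pathways were read from a list of 45 genes found in the files, of which 43 passed the filter: acyl-CoA ligases, elongases, dehydratases, reductases and regulators. In 2X cytokine against 2X PBS 0 of the 43 passed in the fit of 12 libraries, 5 lay above and 7 below without overlap, where 25.3% of all genes were free of overlap, and 5 passed in the edgeR fit of 6 libraries alone, where 7.74% of all genes did. Acsl6, an acyl-CoA ligase of brain, rose, with 681 ± 63.4 CPM in 2X cytokine and 517 ± 56.1 CPM in 2X PBS (mean ± SD of 3 libraries; adjusted p 0.0344). Mid1ip1, which activates acetyl-CoA carboxylase, rose, with 740.3 ± 31.8 CPM in 2X cytokine and 598 ± 37.0 in 2X PBS (adjusted p 0.0469). Acsl5, another ligase of the family, fell, with 10.97 ± 2.42 CPM in 2X cytokine and 23.2 ± 1.87 in 2X PBS (adjusted p 0.00531), and so did Hacd4, a dehydratase of fatty acid elongation, with 7.27 ± 0.203 CPM in 2X cytokine and 15.3 ± 5.29 CPM in 2X PBS (adjusted p 0.0302). Cyb5r3, the reductase that supplies electrons to desaturases, fell, with 178 ± 16.1 CPM in 2X cytokine and 243 ± 22.2 in 2X PBS (0.0207). None of the 5 passed in the fit of 12 libraries, where their edgeR adjusted p-values ran between 0.521 and 0.906. Without replicate 1 of both 1X groups the 3 lower genes passed, and Acsl6 and Mid1ip1 did not, at edgeR adjusted p-values of 0.0717 and 0.271. In each of the other 4 comparisons 0 of the 43 passed in the fit of 12 libraries. Without replicate 1 of both 1X groups, where 44 passed the filter, 16 rose and 4 fell in 1X cytokine against 1X PBS, where 12% of all genes rose and 11.5% fell. In 2X PBS against 1X PBS 14 rose and 4 fell, where 10.1% of all genes rose and 8.47% fell.

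The deposited values are per transcript, and for some genes the level rests on transcripts that do not encode the full protein. Fasn divided its TPM between the coding transcript Fasn-205, at 31.0%, and the retained introns Fasn-203 and Fasn-202, at 31.5% and 30.3%. Msmo1-206, a processed transcript, held 37.8% of the Msmo1 TPM beside 58.0% for the coding Msmo1-201. Fdft1-202, marked for nonsense-mediated decay, held 41.0% of the Fdft1 TPM, and Srebf2-205, a retained intron, 33.3% of the Srebf2 TPM. Srebf1 rested mainly on 3 coding transcripts, Srebf1-203 at 44.9%, Srebf1-201 at 23.8% and Srebf1-207 at 17.6%, and the rest came from its other transcripts. Scd2 rested on Scd2-201 alone, at 100%. These shares come from a model that divides reads among transcripts with common sequence, and they were not compared between the groups.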

How the data were processed

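RNA-seq was measured in 12 libraries, 3 in each of 4 labelled groups, and 19 ATAC-seq samples were not analysed here. Libraries were made with SMART-Seq2 and reads were assigned to the GRCm38 transcriptome with kallisto 0.46.1, per the labels' protocols. The treatment protocol names both cytokines, while the short description label names TNFα alone. Per the file headers, each deposited file holds an estimated count, a TPM and an effective length for 142604 transcripts. The deposited estimated counts are not scaled between libraries, and the deposited TPM values, set by the authors' tool, are scaled per length and to a common sum. The other deposited values are effective lengths (bases), used in 1 alternative.

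Estimated counts were summed per gene symbol and identifier, rounded to whole numbers, filtered with filterByExpr and scaled with TMM. Genes were tested with the quasi-likelihood F test of edgeR 4.0.16 in R 4.3.3, with 1 coefficient per group, all 12 libraries in a common fit, and Benjamini-Hochberg adjustment over all genes tested at a threshold of 0.05. A standard error is the size of the log2 fold change over the square root of F. CPM is on TMM-scaled totals, and TPM is summed over transcripts. The script was tested on simulated data. Alternatives were DESeq2 1.42.0, other scaling and filters, a length offset, limma 3.58.1 on log2(TPM + 1) and log2(TPM + 0.1), voom with quality weights, a replicate block, fits of each comparison's own libraries, and leaving libraries out.

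Any of the 33 genes could be named, with library values for those called in either fit and the 3 of each route with the highest TPM. Other pathway genes could be named if called in either fit. The genes without overlap and those outside that rule were named after their values were seen. The members, lists and tests were chosen with earlier results of these data known. Positions are GENCODE M21 on GRCm38, given where the versioned identifier matched, as it did for 98.1% of the genes. The sources used here do not state a strand setting, so overlapping, antisense and near-identical genes are uncertain. PCR copies count like molecules, so depth covers counting error only.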

Additional observations from a re-analysis of the deposited data

How the results depend on the processing

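The number of the 33 genes that passed the threshold depended on which 1X libraries were used. In 1X cytokine against 1X PBS it was 0 with 12 libraries, 10 by voom with quality weights and 15 without replicate 1 of both 1X groups. The shares of all genes that passed in these settings were 0%, 11.6% and 23.5%. Leaving out 1 library at a time gave 0 to 5, with 5 only without 1X PBS replicate 1. There 7.55% of all genes passed, and at most 3 genes did when another single library was left out. In 2X PBS against 1X PBS the same settings gave 0, 15 and 17. Leaving out 1 library gave 0 to 11, with 11 only without 1X PBS replicate 1. Of all genes 0%, 17.8% and 18.6% passed in the same settings, and 7.39% without 1X PBS replicate 1. In 2X cytokine against 2X PBS the count was 1 (Scd2) with the 6 libraries alone and 1 (Scd2) without both replicate 1 libraries. It was 0 under every other setting tried. Of all genes 7.74% and 7.02% passed in the fits that called Scd2, and between 0 and 460 genes did in the others. The difference of the responses gave 11 without both replicate 1 libraries and 0 otherwise. Of all genes 9.33% passed without both, and at most 176 genes did in the other settings. The log2 difference of Scd2 was reversed without both, at -0.50 against 0.14 with 12 libraries. The cause of these shifts was not tested, and fewer libraries were fitted where some were left out. For single genes, 3676 values did not pass the threshold, as in the fit of 12 libraries, whatever their direction. The direction turned for some of these: the log2 fold change of Insig1 in 1X cytokine against 1X PBS ran between -0.32 and 0.66. Another 85 values newly passed in the direction of the fit of 12 libraries, and 1, the difference of Scd2, passed in the opposite direction.

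Replicate numbers are shared between the groups, but the labels do not say what they mark. Deviations of same-numbered libraries from their group means correlated at -0.62 to 0.16. The lowest values, -0.62, -0.29 and -0.38, were between 1X cytokine and 1X PBS, whose replicate 1 libraries stood apart in opposite directions. These correlations therefore cannot decide whether the numbers pair the libraries. With the replicate number as a block, 0 of the 33 genes passed in each of the 5 comparisons. Of all 14490 genes tested, 2 passed in 2X cytokine against 2X PBS and 0 in each of the others.

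With 3 libraries a group, the biological coefficient of variation was 0.238 over the 12 libraries. Changes as small as those of most of the 33 genes may therefore have been missed in that fit, and the power to detect them was not tested. The 1X labels held the widest spread, at 0.309 when fitted alone against 0.114 for 2X. The median log2 fold change of 2X cytokine against 2X PBS was -0.046 without 2X cytokine replicate 1 and -0.03 with the length offset, and that of 1X cytokine against 1X PBS was below 0 without 1X cytokine replicate 3 or 1X PBS replicate 2 or 3.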
